A study of Arabidopsis thaliana with 24 samples.

Results

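SR and RS proteins are splicing factors whose tails are rich in serine and arginine. The group described here holds 10 of their genes in Arabidopsis thaliana, chosen by name: 4 of the SR subfamily (SR30, AT1G09140; SR34, AT1G02840; SR34a, AT3G49430; SR34b, AT4G02430), 4 of the RS subfamily (RS31, AT3G61860; RS31a, AT2G46610; RS40, AT4G25500; RS41, AT5G52040), and the 2 related genes SR45 (AT1G16610) and SR45a (AT1G07350). The deposited count tables hold these 10 among 33602 genes, 88 of their introns among 120717, and 17 of their alternative splicing (AS) bins among 7973. An AS bin is a stretch of a gene that is exon in some annotated transcripts and intron in others.

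The RNA came from whole plants of 4 groups with 3 replicates each, each replicate sequenced as 2 libraries that share a count column (24 sequenced samples in all). WT Col, the wild type of the Col ecotype, and lsm4, which carries the lsm4-1 mutation in Col, grew on Murashige and Skoog agarose and were harvested at 15 days. WT C24, the wild type of the C24 ecotype, and lsm5, which carries the sad1 mutation of LSM5 in C24, grew on soil and were harvested at 30 days, before bolting. All groups were kept at 22 °C in continuous light after 4 days of stratification, and the labels do not say that replicates were grown separately, so a p-value covers only how these samples vary, which may be technical. These ages are those of the sample protocols; the series' design text instead gives 2 weeks for all plants, so the difference in age is not settled. Because each mutant differs from the other in ecotype, in medium and perhaps in age as well as in gene, the 2 comparisons are given side by side. The labels name 1 mutant line for each gene.

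LSM4 and LSM5 are subunits of a ring of Sm-like proteins that holds the U6 small nuclear RNA in the spliceosome, and of a cytoplasmic ring that acts in mRNA decapping. SR proteins bind exons and help the U1 particle and the U2AF dimer to find the splice sites at the ends of an intron. In plants the transcripts of SR genes are themselves often alternatively spliced, and many of the alternative forms carry a premature stop codon. SR30, SR34, SR34a and SR34b resemble human SRSF1, the RS subfamily is known only from plants, and SR45 resembles human RNPS1, a protein of the exon junction complex.

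Introns of the members that the results turn on, called or not, and those at the matching place in a related gene are shown first in 5′ to 3′ order, from the RefSeq annotation's TAIR10.1 sequence, whose coordinates are those of TAIR10. Capitals mark the first 6 bases, where the U1 and then the U6 RNA pair, and the closing AG. Intron and bin numbers are the deposited ones and run along the chromosome, so that in genes of the minus strand intron 10 lies nearer to the start of the gene than intron 5.
SR30 intron 10 (chr1:2945303-2945381, minus strand): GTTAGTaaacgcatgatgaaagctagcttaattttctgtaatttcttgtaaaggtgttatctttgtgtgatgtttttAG
SR30 intron 5 (chr1:2944457-2944529, minus strand): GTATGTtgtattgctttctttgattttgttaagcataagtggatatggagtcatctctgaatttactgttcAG
SR34 intron 10 (chr1:628169-628245, plus strand): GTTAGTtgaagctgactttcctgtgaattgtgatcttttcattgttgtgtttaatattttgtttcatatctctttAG
SR34b intron 11 (chr4:1070584-1070656, plus strand): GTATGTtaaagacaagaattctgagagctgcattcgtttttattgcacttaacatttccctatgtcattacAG
SR34a intron 14 (chr3:18334717-18334808, plus strand): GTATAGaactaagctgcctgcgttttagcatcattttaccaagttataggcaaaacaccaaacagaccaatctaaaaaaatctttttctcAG
RS40 intron 8 (chr4:13026499-13026571, plus strand): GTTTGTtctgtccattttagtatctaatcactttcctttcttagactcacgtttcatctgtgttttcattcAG
RS41 intron 7 (chr5:21132200-21132279, plus strand): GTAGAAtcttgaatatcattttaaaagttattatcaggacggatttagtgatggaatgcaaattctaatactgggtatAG
SR45 intron 5 (chr1:5676878-5677016, minus strand): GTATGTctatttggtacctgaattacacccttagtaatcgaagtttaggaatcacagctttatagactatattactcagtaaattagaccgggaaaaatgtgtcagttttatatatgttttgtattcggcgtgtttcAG

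Alternative splice sites at the bins that the results turn on are shown next. In SR30 bin 3 and SR34 bin 13, both made by a choice between acceptor sites, the capitals are the AG that ends the intron when the upstream or the downstream site is used. In RS31a bin 5 and SR45 bin 6, both made by a choice between donor sites, and at the downstream donor of RS40 bin 5 and RS41 bin 5, the capitals are the GT that opens the intron.
SR30 bin 3, upstream acceptor (bin at chr1:2943227-2943564, minus strand): ttgcgttgtttgttttctAGatctggctca
SR30 bin 3, downstream acceptor: ggtttttggtcttgctgcAGgtcccaatca
SR34 bin 13, upstream acceptor (bin at chr1:628935-629287, plus strand): ctaatttacattgctgctAGatggataaca
SR34 bin 13, downstream acceptor: cttttcttggacttttgcAGatcgcgttca
RS31a bin 5, upstream donor (bin at chr2:19137831-19138386, minus strand): gcgagttgatatgaagtctgGTaaaacgtt
RS31a bin 5, downstream donor: attgatgcagGTgttgtatatttatttagt
SR45 bin 6, upstream donor (bin at chr1:5676728-5676760, minus strand): agttccatctcaccccgcaaGTatgttgga
SR45 bin 6, downstream donor: tttttctgggGTctctctcgtgggttttat
RS40 bin 5, downstream donor (bin at chr4:13025600-13025856, plus strand): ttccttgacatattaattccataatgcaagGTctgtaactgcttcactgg
RS41 bin 5, downstream donor (bin at chr5:21131816-21131887, plus strand): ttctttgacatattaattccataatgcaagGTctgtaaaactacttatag
The last 30 bases of RS40 bin 5 and RS41 bin 5 are the same at 29 positions, and the 50 bases shown at 39. The downstream acceptor windows of SR30 bin 3 and SR34 bin 13 are the same at 17 of 30 positions.

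Gene counts totalled 9402839 to 52218346 per column, of which the 10 members held 7683 to 48402, and that depth limits what can be seen in single introns. LSM4 counts were higher, not lower, in lsm4 (42.9, 52.0 and 76.3 CPM, the count scaled to a common library size, in WT Col 1 to 3, against 412, 238 and 405 in lsm4 1 to 3), and LSM5 was at 19.9, 12.2 and 15.2 CPM in WT C24 and at 10.1, 11.1 and 16.7 in lsm5, so neither total checks a mutant label. WT Col 1, lsm4 2 and lsm5 3 were the lowest libraries of their groups for all members and WT C24 2 the highest for 9 of 10 (below), so results that change without them are given both ways. Over all genes lsm4 2, WT C24 2 and lsm5 3 were also in both pairs of their groups with the highest chi-square per degree of freedom. In WT Col the highest value was that of replicates 2 and 3 (81.1, beside 68.1 for 1 and 2 and 46.0 for 1 and 3). This measure grows with depth and WT Col 1 is the shallowest library, so it does not tell whether WT Col 1 stood apart. In lsm4, where 10.7% of all tested genes were called lower and 10.7% higher, 4 of 6 root markers were called lower. The summed level of the 6 was 130 to 159 CPM against 230 to 379 in WT Col. CAB3, 1 of 4 green leaf markers, was called lower as well. Of 5 flower markers 2 could be tested in lsm4: SEP3 was called higher, while PI was lower without a call (0.371 ± 0.232 CPM in lsm4 against 0.939 ± 0.625 in its wild type, SD, n = 3). CYCB1-1 was the only one of 4 markers of the shoot meristem and dividing cells to be called, higher in both mutants. Summed, the 4 were at 39.5 to 43.0 CPM in lsm4 against 39.5 to 45.9 in WT Col. In lsm5 they were at 39.7 to 53.6 CPM against 27.4 to 32.7 in WT C24. In lsm5 the flower markers AP1 and AP3 were called higher, where 1.51% of all tested genes were. All 5 flower markers together made up 6.07 to 6.59 CPM in lsm5 against 0.569 to 3.96 in WT C24. The part of these differences between plants in the member values was not tested, and in whole plants fewer cells of a type and less RNA per cell cannot be told apart.

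At the level of the whole gene, none of the 10 members was called as changed in either mutant. In lsm4, 0 of 10 were called at an adjusted p under 0.05 in edgeR's quasi-likelihood test with Benjamini-Hochberg adjustment over all genes (the edgeR adjusted p from here on), where 21.4% of the 20793 tested genes were called. In lsm5, 0 of 10 were called, where 2.45% of 19819 genes were. SR34a in lsm4 was the single case at an unadjusted p under 0.05. The median log2 change of the 10 genes was −0.22 in lsm4 beside 0.02 over all tested genes, and 0.32 in lsm5 beside 0.01.

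SR30, which in overexpressing plants is known to alter the splicing of its own transcript and of its relatives' transcripts, was at 42.5, 60.0 and 52.5 CPM in WT Col 1 to 3, and at 69.3, 49.5 and 65.4 in lsm4 1 to 3 (log2 change 0.25, SE 0.21, edgeR adjusted p = 0.434). In C24 it was at 26.8, 32.4 and 38.3 CPM and in lsm5 at 40.3, 34.6 and 30.9 (log2 0.12, SE 0.20). Both pairs of groups overlapped. SR34, a close relative of human SRSF1, was at 133, 170 and 187 CPM in WT Col and at 145, 95.996 and 150 in lsm4 (log2 −0.33, SE 0.23, edgeR adjusted p = 0.348). It was at 103, 138 and 121 CPM in WT C24 and at 166, 160 and 105 in lsm5 (log2 0.25, SE 0.22). Again the groups overlapped, with lsm4 2 and lsm5 3 the lowest libraries of their groups.

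SR34a was the 1 member whose WT Col and lsm4 libraries did not overlap: it was at 101, 137 and 161 CPM in WT Col and at 96.3, 69.8 and 92.6 in lsm4 (log2 −0.63, SE 0.22, edgeR adjusted p = 0.078). The gap between the groups was small, since lsm4 1 lay just below WT Col 1. Over all tested genes, the lsm4 libraries lay wholly below WT Col in 19.1% and wholly above in 20.7%, so lack of overlap was common. In the C24 plants SR34a was at 72.3, 94.7 and 77.6 CPM in the wild type and at 128, 116 and 81.0 in lsm5 (log2 0.41, SE 0.21, edgeR adjusted p = 0.365). SR34b, which is known for its part in cadmium tolerance, was at 18.3, 32.3 and 37.3 CPM in WT Col, at 35.7, 19.9 and 31.0 in lsm4, at 5.81, 8.80 and 7.80 in WT C24 and at 9.33, 6.06 and 5.32 in lsm5. Its log2 changes of −0.03 (SE 0.30) and −0.12 (SE 0.28) lay well within their errors.

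Of the RS subfamily, RS31, whose splicing is known to follow light through a signal from the chloroplast, was at 56.4, 78.4 and 101 CPM in WT Col and at 67.5, 40.6 and 69.7 in lsm4 (log2 −0.41, SE 0.28). Its values in WT C24 were 42.8, 62.7 and 39.98 CPM and in lsm5 69.8, 61.4 and 35.6 (log2 0.20, SE 0.28). The close relative RS31a was among the lowest members throughout, with 11.9 to 19.2 CPM in WT Col, 11.8 to 24.1 in lsm4, 4.21 to 7.16 in WT C24 and 4.14 to 8.91 in lsm5. RS40 and RS41, a related pair known to work with the RNA processing factors HOS5 and FRY2, had overlapping groups as well. RS40 was at 95.9, 115 and 131 CPM in WT Col and at 107, 74.3 and 117 in lsm4 (log2 −0.20, SE 0.22), and at 80.9, 102 and 82.3 in WT C24 against 142, 126 and 83.5 in lsm5 (log2 0.41, SE 0.22). RS41 was at 136, 188 and 218 CPM in WT Col and at 146, 98.7 and 136 in lsm4 (log2 −0.51, SE 0.24, edgeR adjusted p = 0.157). It was at 105, 137 and 102 CPM in WT C24 and at 179, 177 and 109 in lsm5 (log2 0.44, SE 0.23, edgeR adjusted p = 0.378). For RS40 and RS41, lsm5 1 and 2 exceeded every wild-type library and lsm5 3 did not.

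SR45, which acts in flowering time and in the response to sugar and abscisic acid, was at 100, 143 and 193 CPM in WT Col and at 151, 87.3 and 146 in lsm4 (log2 −0.18, SE 0.29). In the other ecotype it was at 90.4, 131 and 94.3 CPM in WT C24 and at 187, 178 and 106 in lsm5 (log2 0.58, SE 0.26, edgeR adjusted p = 0.284). SR45a, known to be induced by high light and heat, was at 70.2, 99.5 and 115 CPM in WT Col and 95.7, 62.2 and 82.5 in lsm4 (log2 −0.24, SE 0.24), and at 40.4, 51.8 and 40.9 in WT C24 and 51.4, 44.1 and 29.3 in lsm5 (log2 −0.09, SE 0.23). In neither gene did the groups part.

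**Figure D1:**
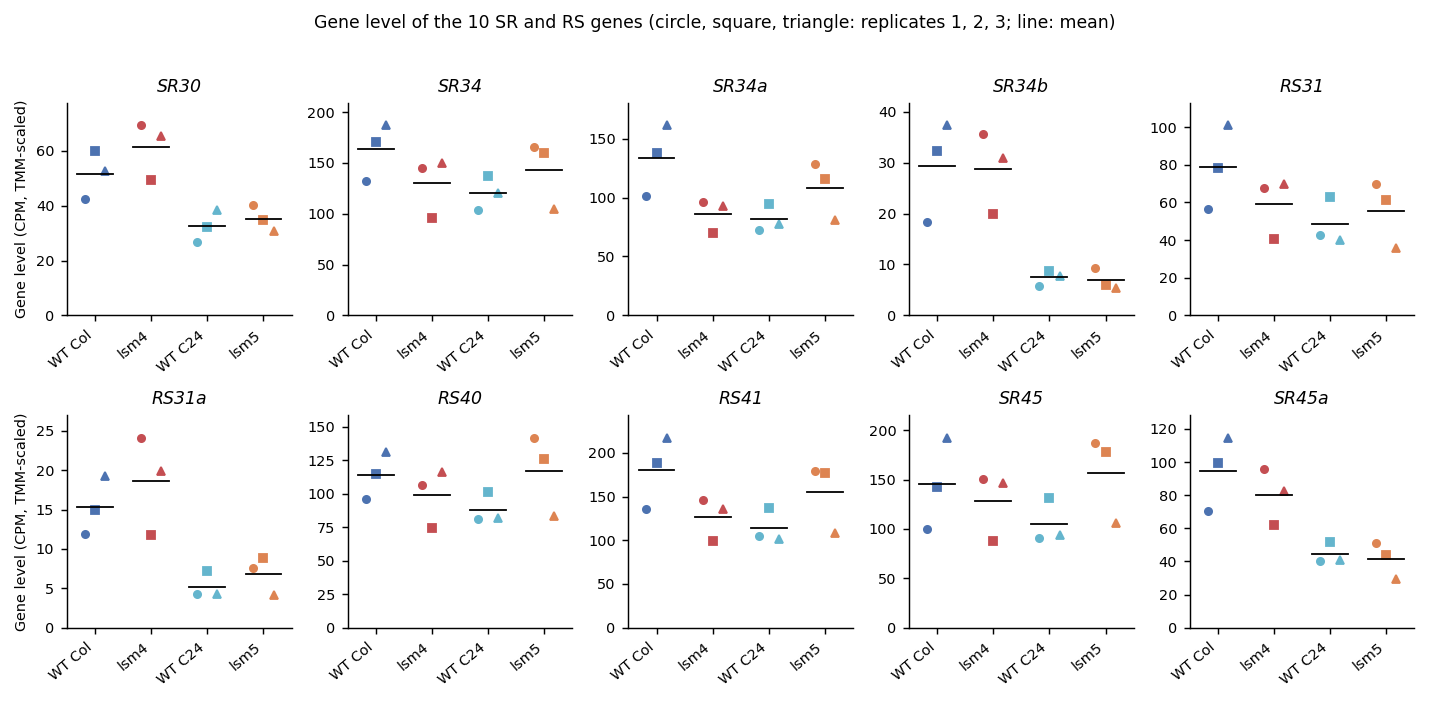
Gene level of each of the 10 genes in CPM (vertical axis) in WT Col, lsm4, WT C24 and lsm5 (horizontal axis), with 3 replicates a group as circle, square and triangle and the group mean as a line. SR34a is the only one of the 10 whose WT Col (101 to 161 CPM) and lsm4 (69.8 to 96.3 CPM) replicates do not overlap. Of all tested genes, 19.1% lie wholly lower in lsm4 and 20.7% wholly higher. Replicate 2 of lsm4 and replicate 3 of lsm5 lie lowest.

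The replicates of a group moved together across the members. WT Col 1 was the lowest WT Col library and lsm4 2 the lowest lsm4 library for 10 of 10 genes, and lsm5 3 was the lowest lsm5 library for 10 of 10. WT C24 2 was the highest C24 library for 9 of 10. Without WT Col 1 and lsm4 2, 2 genes fell in lsm4: SR34a (log2 −0.66, SE 0.14, edgeR adjusted p = 0.00904) and RS41 (log2 −0.53, SE 0.14, edgeR adjusted p = 0.0229), while 16.2% of all tested genes fell. Without WT C24 2 and lsm5 3, 7 genes rose in lsm5, where 19.2% of all genes did. They were SR34, SR34a, RS31, RS31a, RS40, RS41 and SR45, with log2 changes from 0.54 (SR34, SE 0.13) to 0.99 (SR45, SE 0.12, edgeR adjusted p = 4.95e-05), and not SR30, SR34b or SR45a. Leaving out the highest wild-type and the lowest mutant library widens that difference by construction, and these libraries were chosen after seeing the data.

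Per kilobase of exon, the order of the members was much alike in all groups, and most neighbours in it overlapped. SR34 (102 ± 17.4 CPM per kb, SD, n = 3), RS41 (99.2 ± 22.5) and SR45 (87.3 ± 27.7) led in WT Col, and SR45 (94.4 ± 26.7), SR34 (90.06 ± 21.1) and RS41 (85.1 ± 22.0) led in lsm5. SR30 stood clear of its neighbours on both sides in WT Col at 32.1 ± 5.45, below SR45a at 61.1 ± 14.6 and above SR34b at 18.02 ± 6.04. SR34b and RS31a were the lowest pair in each of the 4 groups, at 4.59 ± 0.936 and 3.14 ± 1.03 CPM per kb in WT C24.

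Introns of the members carried more reads per transcript in lsm4. What was tested is the relative intron signal, the intron's count with the count of its gene in each library as offset, which a change of the whole transcript does not move. Of 88 member introns, 39 passed the filter on low counts in the lsm4 comparison, and 8 of these rose and 0 fell, where 17.8% of the 11439 tested introns rose and 0.297% fell. The rise was general: the median log2 change was 0.65 over all tested introns and 0.77 over the 39, of which 35 lay above 0 and 23 above the general median. Measured against that median, 2 of the 39 were still called, SR30 intron 10 and SR45 intron 3, where 4.98% of all introns were. All 8 introns lie within the coding span of their gene and overlap no annotated exon of RefSeq.

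SR30 held the 2 called introns with the highest density in lsm4, where density is the intron's count per base over that of the exons, in percent. Intron 10, the third intron from the start of the gene, had counts of 3, 23 and 3 in WT Col 1 to 3 but of 93, 51 and 55 in lsm4 1 to 3. Its density was 14.4%, 16.8% and 4.98% in WT Col and 79.3%, 56.6% and 49.4% in lsm4 (log2 change 2.30, SE 0.45, edgeR adjusted p = 0.00427, and 0.0458 against the median intron). In all 3 lsm4 replicates the count per base of this intron thus came within a factor of about 2 of that of the exons. Density is not corrected for reads that overlap a feature only in part, so it runs high in short ones. In WT Col it was 1571 ± 663% (SD, n = 3) in the 4-base SR34 bin 3. SR30 introns 10 and 5 are 79 and 73 bases long, so their densities do not give the share of transcripts that keep them. Ranking by density against longer introns is limited in the same way. Intron 5 of SR30 had counts of 4, 30 and 8 in WT Col and 66, 66 and 46 in lsm4, and densities of 20.7%, 23.7% and 14.4% against 60.9%, 79.3% and 44.7% (log2 1.61, SE 0.39, edgeR adjusted p = 0.0128). The groups did not overlap in either intron. Another 2 member introns, named after their values were seen, had a higher mean density still in lsm4, and neither was called. SR34b intron 14 was at 80.3 ± 22.1% in lsm4 against 60.3 ± 26.3% in its wild type, and SR45a intron 1 was at 64.4 ± 6.01% against 47.1 ± 11.7% (mean ± SD, n = 3).

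Related introns can be set side by side within the SR subfamily. The coding exons of SR30, SR34, SR34a and SR34b have the same order of lengths over much of the gene, with 47, 58 and 50 bases before an exon of 57 bases (48 in SR34b) and so give matching places. At the place of SR30 intron 5, after that last exon, SR34a intron 11 rose too, from 2, 21 and 11 counts in WT Col to 37, 19 and 19 in lsm4 (density 1.98 ± 0.492% and 5.90 ± 1.96%, SD, n = 3, log2 1.47, SE 0.45, edgeR adjusted p = 0.0353). At the same place SR34 intron 10 had counts of 2, 19 and 9 in WT Col and 21, 20 and 26 in lsm4 (log2 1.20, SE 0.45, edgeR adjusted p = 0.073), and SR34b intron 11 had 0, 1 and 1 against 9, 5 and 7, too few to be tested. The mutant libraries thus had higher densities or counts at this place in all 4 genes, but 2 of the 4 passed the test, and the call of SR34a intron 11 was lost in 8 of 14 other settings. Of all tested introns 81.8% had a log2 change above 0 in lsm4, so the shared direction does not set this place apart. The donors at this place are shown with the last 3 exon bases, which are the same in the 4 genes, and the first 6 intron bases in capitals:
SR30 intron 5, donor: cggGTATGT
SR34 intron 10, donor: cggGTTAGT
SR34a intron 11, donor (intron at chr3:18333987-18334216, plus strand): cggGTACCA
SR34b intron 11, donor: cggGTATGT
The 6 bases shared by SR30 and SR34b open 4.83% of the 11407 tested introns with a match in the reference, and 3 of the 39 tested member introns.

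At the place of SR30 intron 10, after an exon of 75 bases, the relatives had few reads. SR34 intron 5 had 2, 6 and 3 counts in WT Col and 9, 7 and 10 in lsm4. SR34a intron 6 had 0, 5 and 0 against 3, 0 and 5, and SR34b intron 5 had 0, 4 and 2 against 0, 1 and 7. None of these passed the filter, so the difference of SR30 from its relatives at this place was not tested. The last intron of SR34a, intron 14, rose from 2, 5 and 7 counts in WT Col to 31, 20 and 14 in lsm4, with densities of 2.79 ± 1.19% and 12.96 ± 4.61% (SD, n = 3, log2 2.38, SE 0.56, edgeR adjusted p = 0.0109). WT Col and lsm4 were apart in this intron.

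In the RS subfamily 1 intron rose in RS40 and 1 in RS41. RS40 intron 8 had 0, 6 and 5 counts in WT Col and 17, 15 and 24 in lsm4, and densities of 2.22 ± 2.02% and 12.9 ± 1.61% (SD, n = 3, log2 2.18, SE 0.58, edgeR adjusted p = 0.0184). RS41 intron 7 had 0, 10 and 4 counts against 16, 19 and 13, and densities of 1.46 ± 1.33% and 8.44 ± 2.96% (SD, n = 3, log2 2.05, SE 0.59, edgeR adjusted p = 0.028). The lsm4 libraries lay above every WT Col library in both, but RS41 intron 7 was called in only 4 of 14 other settings (adjusted p up to 0.175). These introns are not at matching places: RS41 intron 7 follows an exon that has the same length in all 4 RS genes, and its counterpart RS40 intron 7 had 5, 3 and 5 counts in WT Col and 2, 5 and 6 in lsm4. Conversely, RS41 intron 8, the counterpart of RS40 intron 8, had 2, 1 and 2 counts against 3, 12 and 4. RS31 intron 1, the last intron of the gene, had no count in WT Col and 4, 6 and 10 in lsm4, and it had 0, 2 and 0 in WT C24 and 10, 6 and 15 in lsm5. It was below the filter in both comparisons and was chosen for naming after its values were seen; in the authors' deposited table its log2 change in lsm5 is 3.10 with an FDR of 0.0641.

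SR45 had 2 introns that rose. Intron 3 had 2, 2 and 2 counts in WT Col 1 to 3, as against 26, 18 and 31 in lsm4 1 to 3, with densities of 0.653 ± 0.671% and 3.98 ± 0.401% (SD, n = 3). Its log2 change of 3.32 (SE 0.63, edgeR adjusted p = 0.00396, and 0.029 against the median intron) was the largest of the 8, from the lowest wild-type density. Intron 5, the next intron upstream, had 2, 21 and 18 counts in WT Col and 52, 57 and 48 in lsm4, with densities of 2.38%, 3.77% and 4.78% against 11.9%, 21.1% and 11.3% (log2 1.88, SE 0.41, edgeR adjusted p = 0.00769). The lsm4 libraries exceeded all WT Col libraries in both introns. SR45a, with 3 introns tested, had log2 changes from −0.08 to 0.48 and none called.

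The 8 calls held to different degrees under other settings of the fit, in all of which that were run their log2 changes stayed above 0. SR30 intron 10 was called in 15 of 15 settings and SR45 intron 3 in 14 of 14. SR45 intron 5 was called in 14 of 15, lost against the median intron alone, and SR30 intron 5 in 13 of 15, lost there and without WT Col 3 (edgeR adjusted p = 0.0628). SR34a intron 14 was called in 11 of 14 and was lost without WT Col 2 or lsm4 1, and RS40 intron 8 in 10 of 14 and was lost without WT Col 2, lsm4 1 or lsm4 3. SR34a intron 11 was called in 6 of 14, with adjusted p-values up to 0.291, and was lost without WT Col 2, WT Col 3 or lsm4 1. RS41 intron 7 was lost when any single library of the comparison other than WT Col 1 was left out.

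**Figure D2:**
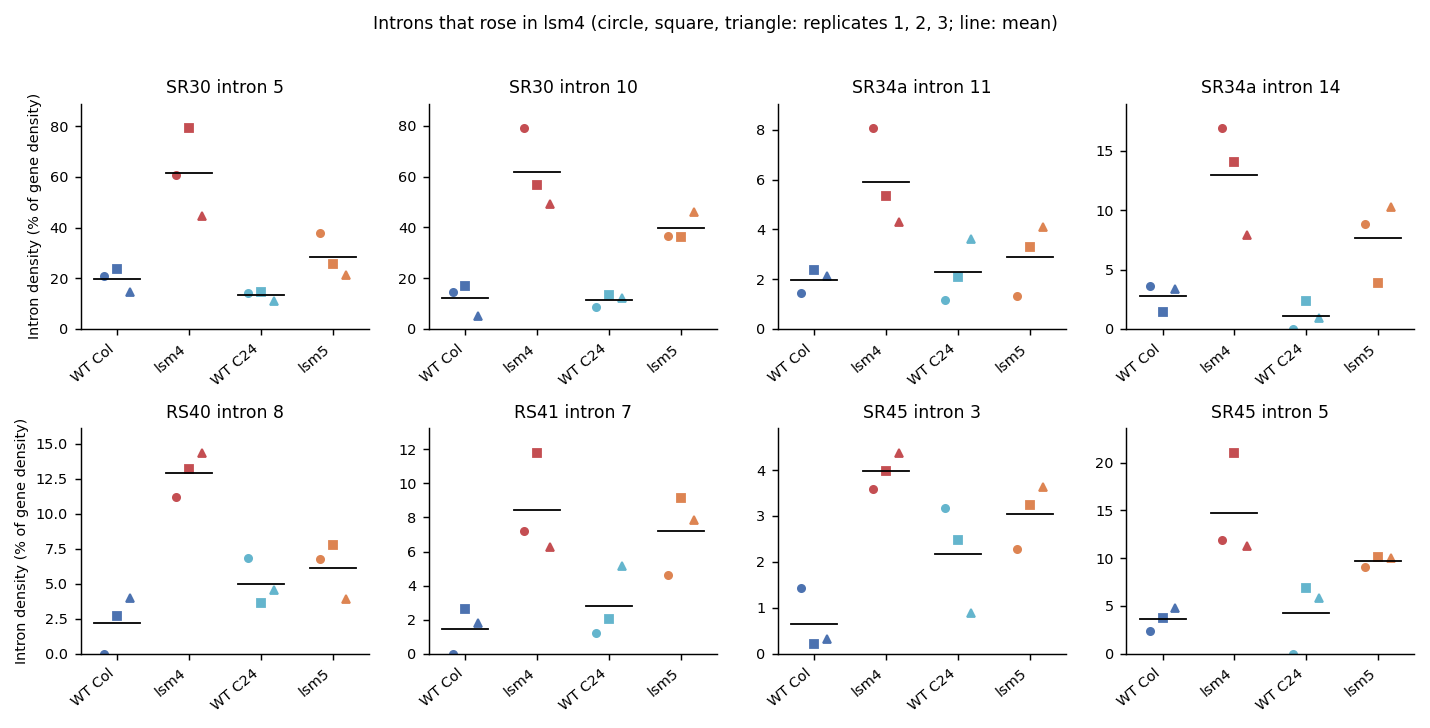
Density of reads in the 8 introns that rose in lsm4, in percent of that of the gene's exons (vertical axis), by group (horizontal axis), with replicates 1 to 3 as circle, square and triangle and the mean as a line. SR30 introns 10 and 5 reach 49.4% to 79.3% and 44.7% to 79.3% in lsm4, and the other 6 stay at 21.1% or less. Density is not corrected for reads that overlap an intron only in part and runs high in short features.

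Without WT Col 1 and lsm4 2, 10 of 40 tested member introns rose, where 24.2% of all introns did. The 10 held 7 of the 8 introns above, with RS41 intron 7 lost by a narrow margin (log2 1.55, SE 0.51, edgeR adjusted p = 0.05002), and SR34 intron 13 (log2 1.91), SR34b intron 13 (log2 1.26) and SR45 intron 2 (log2 2.44) gained. Summed over the 10 genes, intron counts made up 4.40, 3.49 and 3.03 per 100 gene counts in WT Col and 6.15, 7.23 and 5.53 in lsm4, a ratio of 1.73. The groups did not overlap, and a two-sided exact permutation test gave p = 0.1, the smallest that 3 against 3 allows. Over all genes the ratio was 1.55 (1.84 ± 0.0601 and 2.85 ± 0.123 per 100, SD, n = 3). By member the ratio ran from 1.20 in SR45a to 2.70 in SR45, with SR30 at 2.51 and RS40 at 2.13, and in 6 of 10 genes the WT Col and lsm4 replicates did not overlap. The like share of all genes was not computed. Of single tested introns, lsm4 lay wholly above WT Col in 36.6% of all and in 18 of the members' 39. WT Col 1, the shallowest library, had the highest intron share of the WT Col replicates in 7 of the 10 genes.

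No member intron was called in lsm5. Of 24 tested introns 0 were called, where 0.531% of the 7151 tested introns were, and 1 of the 24 had an unadjusted p under 0.05. The median log2 change was 0.17 over the 24, of which 14 lay above 0, beside 0.24 over all. Counts of SR30 intron 10 were 2, 7 and 6 in WT C24 1 to 3, as against 22, 20 and 26 in lsm5 1 to 3, with densities of 8.68%, 13.4% and 12.3% against 36.7%, 36.4% and 46.1% (log2 1.72, SE 0.47, edgeR adjusted p = 0.113). Each lsm5 library thus held more than 2 times the density of each WT C24 library in the called intron that had the highest mean density in lsm4. SR30 intron 5 had densities of 13.2 ± 1.87% and 28.2 ± 8.70% (SD, n = 3, log2 1.09, SE 0.55), RS41 intron 7 had 2.80 ± 2.08% and 7.20 ± 2.33% (log2 1.33, SE 0.65), and SR45 intron 5 had 4.26 ± 3.72% and 9.75 ± 0.593% (log2 1.04, SE 0.60). SR45 intron 3, the largest change in lsm4, was at 2.18 ± 1.17% and 3.05 ± 0.698% here (log2 0.50, SE 0.52).

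**Figure D3:**
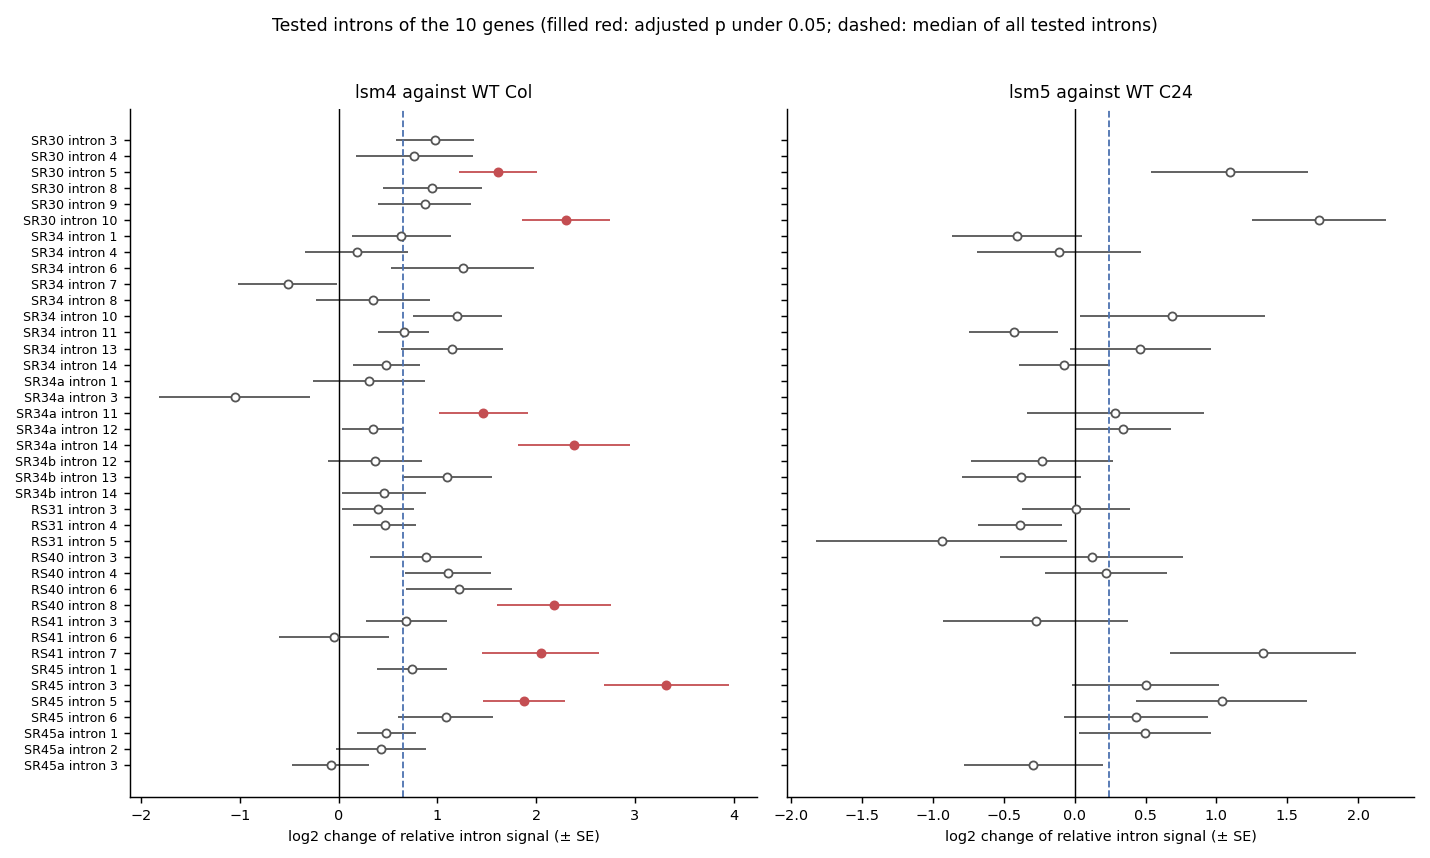
Log2 change of the relative intron signal with its SE (horizontal axis) for the tested introns of the 10 genes, lsm4 against WT Col and lsm5 against WT C24, with the called introns filled and the median of all tested introns dashed (0.65 and 0.24). In lsm4, 8 of 39 introns are called and 35 lie above 0, and in lsm5 none of 24 is called and 14 lie above 0.

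A direct test of the difference between the effects, as an interaction over all 12 count columns, called 0 of 44 member introns, where 0.0145% of 13774 introns were called, so the intron changes of lsm4 and lsm5 were not shown to differ. For the gene levels the interaction called 0 of 10 members, where 10.5% of all genes were called. The mean of both effects, added after seeing the data, called 8 of the 44 introns, where 16.2% of all were called. Summed over the members, intron counts per 100 gene counts were 3.20, 3.28 and 3.63 in WT C24 and 3.44, 3.06 and 4.17 in lsm5 (ratio 1.05, two-sided exact permutation p = 0.7), while over all genes the ratio was 1.21. The members' share turned lower in lsm5 when lsm5 3 was left out, with a difference of −0.123 counts per 100 in place of 0.183. In SR30, SR34a and SR45 the lsm5 replicates lay above the C24 replicates, with ratios of 1.65, 1.54 and 1.47. The share of all genes that did the same was not computed. Summed over all genes, lsm5 also lay wholly above WT C24, at 1.97, 1.85 and 2.07 per 100 against 1.57, 1.63 and 1.68. Of single tested introns, lsm5 lay wholly above WT C24 in 16.5% of all and in 4 of the members' 24.

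Alternative splicing bins gave no call in either mutant when each was compared with its own wild type. In lsm4, 15 of the 17 member bins were tested and 0 called, where 0.366% of 3549 bins were called, and in lsm5 13 were tested and 0 called, where 0% of 2932 were. At an unadjusted p under 0.05 there were 3 member bins of 329 bins in all in lsm4, and 3 of 137 in lsm5. Over all tested bins, lsm4 lay wholly above WT Col in 10.8% and wholly below in 4.76%. Among the members' 15 bins it did so in 2 and in 1, so in lsm4 lack of overlap does not set the member bins apart. In 8 of the 17 bins the reference sequence holds a stop codon in all 3 reading frames, and 7 of these 8 had counts. They lie in SR30, SR34, SR34a, RS31a, RS40 and RS41, and the text gives a bin's count per 100 counts of its gene. The SR34a bin among them, bin 3, lies wholly upstream of the coding span, so a stop codon there is not a premature one.

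SR30 bin 3 had a smaller share in every mutant replicate than in any wild-type replicate of the same ecotype. The bin is 338 bases long, not a multiple of 3, and is read as exon when the upstream acceptor shown above is used. It made up 19.2, 12.1 and 10.8 per 100 gene counts in WT Col and 5.56, 8.77 and 5.64 in lsm4 (log2 −1.06, SE 0.31, edgeR adjusted p = 0.223). In WT C24 it made up 4.89, 9.09 and 9.43 and in lsm5 2.70, 2.32 and 4.18 (log2 −1.36, SE 0.38, edgeR adjusted p = 0.567). The groups did not overlap in either comparison, but neither passed the test, and in the authors' deposited table the lsm4 change is −0.90 with an FDR of 0.129. The mean of both effects, a contrast added after these values had been seen, was −1.21 (SE 0.25, edgeR adjusted p = 0.0255), and it was the only call among 15 bins, where 1.3% of 3855 bins were called. It was lost, at adjusted p-values up to 0.0803, when any of 7 of the 12 columns was left out: WT Col 1, WT Col 2, lsm4 1, lsm4 3, WT C24 3, lsm5 1 or lsm5 2. Without WT Col 1 and lsm4 2, 3 member bins were called in lsm4, where 3.47% of all bins were: SR30 bin 3 (log2 −1.04, edgeR adjusted p = 0.0114), SR34 bin 3 (log2 0.94) and SR45 bin 6. For SR34 bin 3 these were the highest wild-type share (5.86 per 100, beside 3.09 and 2.88) and the lowest mutant share (4.86, beside 5.07 and 6.43), so that leaving them out widens the difference by construction; with all libraries its log2 change was 0.50 (edgeR adjusted p = 0.74). Without WT C24 2 and lsm5 3 SR30 bin 3 fell in lsm5 (log2 −1.57, edgeR adjusted p = 0.00518), and lsm5 3, left out here, has its highest mutant share.

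SR34 bin 13, like SR30 bin 3 a choice of acceptor beside the longest intron of its gene, had changes of opposite sign. It is 353 bases long and made up 4.28, 4.13 and 3.91 per 100 gene counts in WT Col and 5.37, 6.77 and 5.58 in lsm4 (log2 0.52, SE 0.22, edgeR adjusted p = 0.492). In WT C24 it made up 3.80, 2.89 and 3.92 and in lsm5 2.24, 1.64 and 1.74 (log2 −0.91, SE 0.27, edgeR adjusted p = 0.567). Every lsm4 replicate lay above WT Col and every lsm5 replicate below WT C24. The difference between the effects was 1.43 (SE 0.32), with an unadjusted interaction p of 0.000607 that did not pass over all bins (edgeR adjusted p = 0.472).

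SR34a bin 3, a 245-base exon that is skipped in some transcripts, lies wholly upstream of the coding span. It made up 2.17, 0.921 and 0.424 per 100 in WT Col and 0.572, 2.12 and 0.684 in lsm4 (log2 0.09, SE 0.65). In WT C24 it made up 1.34, 2.37 and 2.38 and in lsm5 0.180, 0.535 and 1.19 (log2 −1.70, SE 0.62, unadjusted p = 0.0248). The C24 groups did not overlap, and the Col groups did.

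RS31a bin 5, which lies between the donors shown and is 556 bases long, made up 2.52, 5.87 and 6.22 per 100 in WT Col and 6.603, 7.53 and 5.93 in lsm4 (log2 0.34, SE 0.38). In WT C24 it made up 17.57, 5.51 and 12.7 and in lsm5 4.80, 3.47 and 6.49 (log2 −1.22, SE 0.58). RS31a had 10 to 14 counts in this bin in each WT C24 and lsm5 column, so its C24 values rest on few reads, and both pairs of groups overlapped.

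RS40 bin 5, a 257-base exon that is skipped in some transcripts, made up 1.46, 1.01 and 0.653 per 100 in WT Col and 1.33, 2.39 and 1.38 in lsm4 (log2 0.78, SE 0.40). In WT C24 it made up 2.11, 1.61 and 3.55 and in lsm5 0.859, 0.688 and 1.96 (log2 −1.06, SE 0.49), and the unadjusted interaction p was 0.0155. RS41 has the related region as bins 4 and 5. Bin 4 made up 0.950, 0.958 and 0.570 per 100 in WT Col, 0.496, 1.91 and 0.828 in lsm4, 1.13, 0.710 and 2.79 in WT C24 and 0.681, 0.592 and 1.83 in lsm5. RS41 bin 3, a 92-base stretch at another choice of donor without a stop codon in every frame, made up 4.24, 2.95 and 2.28 in WT Col, 2.74, 7.48 and 2.87 in lsm4, 5.08, 2.86 and 8.22 in WT C24 and 2.80, 2.63 and 7.98 in lsm5. In these RS41 bins the difference between replicates of a group was wider than that between the groups, with lsm4 2, WT C24 3 and lsm5 3 high.

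SR45 bin 6 is the 33-base stretch between the donors shown, directly before intron 3. It made up 0.298, 0.0300 and 0.0666 per 100 in WT Col and 0.537, 0.401 and 0.335 in lsm4 (counts of 3, 2 and 3 against 28, 13 and 17, log2 2.42, SE 0.75, edgeR adjusted p = 0.275). The groups were apart, though WT Col 1 came close to lsm4 3. Without WT Col 1 and lsm4 2 the bin was called (log2 3.20, edgeR adjusted p = 0.0266), but WT Col 1 is the highest wild-type share, so its loss raises the change by construction. In the authors' deposited table its log2 change is 2.08 with an FDR of 0.149. In C24 plants it had 8 counts in all over both groups. SR45 bin 10, the most read SR45 bin, was at 9.24, 8.72 and 7.83 per 100 in WT Col and 8.04, 6.79 and 7.48 in lsm4, and at 7.75, 10.4 and 9.24 in WT C24 and 8.26, 7.49 and 5.87 in lsm5, with overlapping groups. SR45a bin 5, a 96-base exon that can be skipped, had a log2 change of −0.06 (SE 0.30) in lsm4. In WT C24 it made up 3.10, 1.23 and 0.940 per 100 and in lsm5 0.834, 0.702 and 0.916 (log2 −1.05, SE 0.56), so the groups were just apart.

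**Figure D4:**
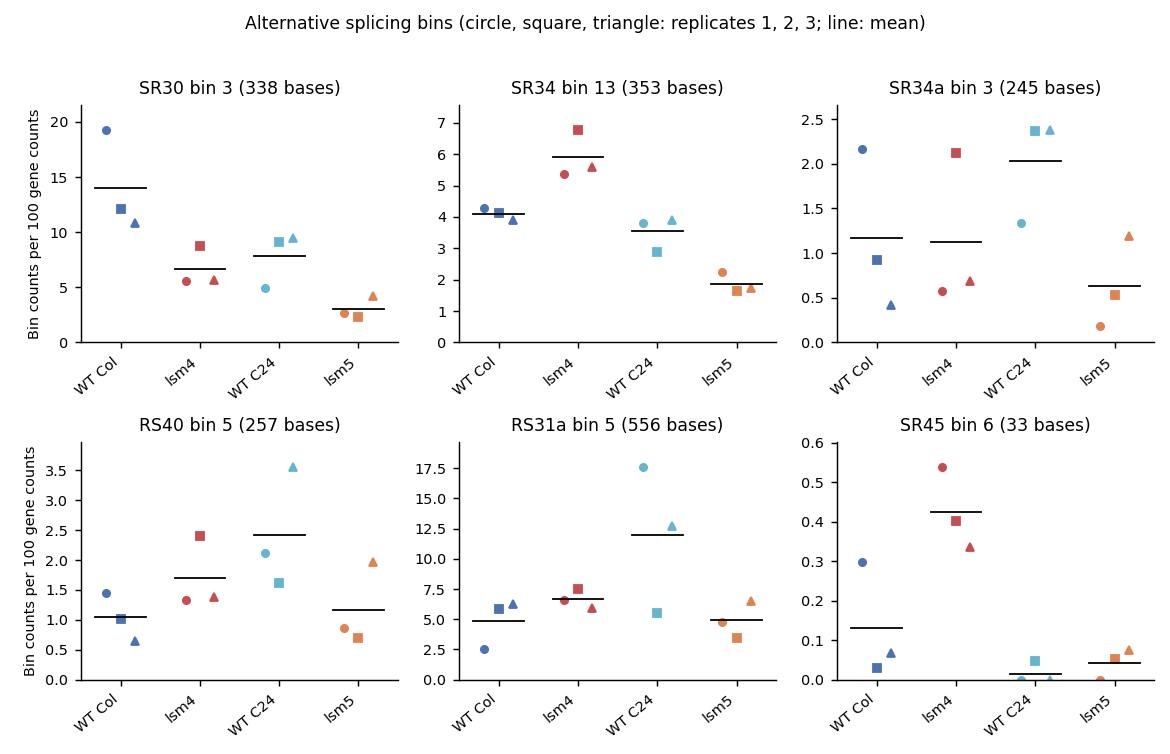
Counts of the AS bins per 100 counts of their gene (vertical axis) in the 4 groups (horizontal axis), with replicates 1 to 3 as circle, square and triangle and the mean as a line. SR30 bin 3 lies lower in both mutants (5.56 to 8.77 against 10.8 to 19.2 and 2.32 to 4.18 against 4.89 to 9.43), while SR34 bin 13 lies higher in lsm4 and lower in lsm5. Of all tested bins, 4.76% lie wholly lower and 10.8% wholly higher in lsm4, and 3.27% wholly lower in lsm5.

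Across the member bins, signs differed between the mutants. Of the 13 bins tested in both comparisons, 8 had a log2 change above 0 in lsm4 and below 0 in lsm5, 4 were below 0 in both and 1 was above 0 in both. In lsm5, 12 of 13 bins were below 0, with a median of −0.58 beside 0.01 over all tested bins, and in lsm4 11 of 15 were above 0, with a median of 0.26 beside 0.07. Of all tested bins, 51.1% were above 0 in lsm5 and 55.9% in lsm4. All 7 tested bins with a stop codon in every frame were below 0 in lsm5 (median −1.06), with groups that did not overlap in 3, and 5 of the 7 were above 0 in lsm4. The like share of all bins with such stop codons was not computed. The bins are not independent, since RS41 holds 4 of them, its bins 4 and 5 adjoin, and bins of a gene share its count as offset. Over all 13 bins the lsm5 replicates lay below WT C24 without overlap in 4, where 3.27% of all tested bins did so. The interaction called 0 of 15 member bins, where 0.0259% of 3855 were called, so no single bin was shown to differ between the mutants. Without WT C24 2 and lsm5 3, 8 of 13 bins fell in lsm5 (18.4% of all bins fell): SR30 bin 3, SR34 bin 13, SR34a bin 3, RS31a bin 5, RS40 bin 5 and RS41 bins 3, 4 and 5, with log2 changes from −0.99 to −2.41. As WT C24 2 was the lowest wild-type share in 5 of the 7 bins with a stop codon in every frame and lsm5 3 the highest mutant share in 6 of them, leaving these libraries out makes most such differences larger by construction, and the 8 calls are no independent support.

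In WT Col, lsm4 and lsm5, but not in WT C24, the replicate with the lowest gene levels had the highest share in most of these bins. lsm4 2, the lowest lsm4 library for all 10 genes, had the highest lsm4 share in 6 of the 7 bins with a stop codon in every frame. WT Col 1, the lowest WT Col library for all 10, was highest in 5 of 7. lsm5 3, the lowest lsm5 library for all 10, was highest in 6 of 7. WT C24 1, the lowest WT C24 library for 8 of 10, was highest in 1 of 7, and WT C24 3 was highest in 6. WT C24 2, the highest WT C24 library for 9 of 10, was lowest in 5 of 7. Shares are counts over the gene's own count, so level and share have that count in common, and the pattern is given as a description of these libraries.

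Features of SR34b differed between the Col and the C24 plants. SR34b bin 10, a 10-base stretch at a choice of acceptor, had 112 counts over the WT Col columns, 132 over those of lsm4 and 0 over all C24 and lsm5 columns. SR34b intron 14 had 72 counts over the WT Col columns, 116 over those of lsm4 and 0 in every WT C24 and lsm5 column. SR34b bin 2 had 0 counts in all 12 columns. Reads of both ecotypes were counted on the TAIR10 genome, which is that of Col, and the plants differed in medium and perhaps in age as well. The part of sequence differences, medium or age in the C24 values was not tested.

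The genes around the members in the splicing pathway were taken from lists of 10 genes each. None of 10 other SR genes was called in either mutant; the largest log2 changes were −0.51 (SCL30a) and −0.45 (RSZ33) in lsm4 and 0.71 (RSZ22a) and 0.60 (RSZ32) in lsm5. Of 10 genes for kinases of SR proteins and their nuclear import, 3 rose in lsm4 and 0 fell, where 10.7% of all genes rose. SRPK1, a kinase of SR proteins, was at 3.09, 2.15 and 2.31 CPM in WT Col and 5.36, 9.46 and 4.61 in lsm4 (log2 1.39, SE 0.35, edgeR adjusted p = 0.0209). MOS14, the importin that carries SR proteins into the nucleus, was at 9.27, 10.9 and 10.9 CPM against 16.8, 20.8 and 15.7 (log2 0.77, SE 0.20, edgeR adjusted p = 0.027). SRPK3b was at 7.58, 7.17 and 9.91 CPM against 13.5, 13.02 and 15.3 (log2 0.76, SE 0.22, edgeR adjusted p = 0.037). All 3 had groups that did not overlap, and none of the 10 was called in lsm5.

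None of 10 splice site partners, among them the U1 proteins and the U2AF subunits that SR proteins contact, was called in either mutant; U2AF35B was at a log2 change of −0.52 in lsm4 and U1C at 0.65 in lsm5. Of 12 genes of the heat and high light response, in which SR45a and SR30 are known to be induced, 3 of 11 tested rose in lsm4, where 10.7% of all genes rose. In lsm5 0 of 10 tested rose, where 1.51% of all genes did. Those in lsm4 were HSP18.2 (log2 1.98, SE 0.45), HSP70 (log2 0.89, SE 0.18) and ZAT12 (log2 1.43, SE 0.40). SR45a and SR30 themselves were not called there.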

How the data were processed

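Whole-plant polyA RNA was sequenced from TruSeq libraries that do not mark strand, per the labels' protocols, so the reads of overlapping or antisense genes are not separable. The authors deposited raw counts per gene, intron and AS bin, as whole numbers. The submitters' processing notes name TopHat2 2.0.9, R 3.0.2, edgeR 3.4.2 and TAIR10; the counting tool is not given in the sources used here. Tables with the authors' own tests hold, per the file headers, log2 fold changes and p-values adjusted as FDR, and were used only where credited.

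Everything else was computed from the deposited counts with R 4.3.3. Each mutant was tested against its own wild type with the edgeR 4.0.16 quasi-likelihood test, TMM scaling and filterByExpr (minimum count 10), with Benjamini-Hochberg adjustment over all features tested and calls at an adjusted p under 0.05. For introns and bins, the offset was the log count of the host gene, which had to reach 10 in each library. Alternatives were DESeq2 1.42.0, other filters and offsets, replicate blocks and leaving out replicates. CPM is after TMM scaling, and CPM per kb uses annotated exon length. Intron share was compared with two-sided exact permutation tests, whose smallest p for 3 against 3 is 0.1.

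Depth was 9402839 to 52218346 gene counts per column. Replicates of a group differed by more than sampling noise (chi-square per degree of freedom 15.3 to 142). Of the tested introns, 98.0% open with GT and end with AG in the reference, which gave all sequences. The gene, intron and bin fits of the lsm4 comparison were checked on simulated data with known changes and the same spread set for every feature. The lsm5 fits, the interaction and the mean of both effects were not checked in this way. Not used were 12 per-sample columns named in no label and 1 intron row without a name, with 11 counts. The 10 genes and all lists were chosen with earlier results of these data known. All members were named, with every called intron and bin; of the rest, the longest introns, the bins with the smallest p and the 2 largest changes of a list could be named, and others only where said.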

Additional observations from a re-analysis of the deposited data

Results flagged for a closer look

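In SR34b intron 13 and SR34 bin 13 the changes had opposite signs in the mutants. Every lsm4 replicate lay above every WT Col replicate, and every lsm5 replicate below every WT C24 replicate. SR34b intron 13 had densities of 10.5%, 9.02% and 13.3% in WT Col and 24.4%, 17.1% and 27.9% in lsm4, and of 104%, 70.1% and 71.5% in WT C24 and 61.6%, 59.3% and 63.5% in lsm5. The lsm4 effect minus the lsm5 effect was 1.459 on the log2 scale (SE 0.63, edgeR interaction, unadjusted p = 0.0295, adjusted p = 0.604). For SR34 bin 13 that difference was 1.4327 (SE 0.32, unadjusted p = 0.000607, adjusted p = 0.472). Neither passed the adjustment over all introns or bins. The density of SR34b intron 13 in C24 plants rests on 11 to 21 counts per column.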

How the results depend on the processing

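Counts of called members are given first. In lsm4, called genes went from 0 to 0 to 1 with single replicates left out (1 without WT Col 1) and to 2 without both WT Col 1 and lsm4 2 or with a block by the tag in the file headers. Called introns went from 8 to 3 at a minimum mean count of 30, to 2 against the median intron, to 12 with the tag block and to 4 to 11 with single replicates left out. Called bins went from 0 to 3 without WT Col 1 and lsm4 2, and to 3 with the tag block. What the tags mark is not stated, and since WT Col 1 and lsm4 2 are alone in their tag blocks, both settings compare the same 4 libraries and are not separate support. In lsm5, called genes went from 0 to 0 to 1 with single replicates left out (1 without lsm5 3) and to 7 without WT C24 2 and lsm5 3, which also gave 8 bins in place of 0; introns stayed at 0 in every setting run. The mean of both effects called 0 to 1 bins with single replicates left out. The lsm5 difference in intron share, 0.183 per 100, ranged from −0.123 to 0.431 with single replicates left out and was −0.168 without WT C24 2 and lsm5 3.

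Some small gene changes turned sign. SR34b in lsm4 was 0.01 with no filter on low counts (0.00813) and −0.27 to 0.19 with single replicates left out, and SR45 in lsm4 −0.388 to 0.0893. In lsm5, ranges with single replicates left out were −0.40 to 0.02 for SR34b, −0.27 to 0.09 for SR45a, −0.00551 to 0.255 for SR30, −0.000891 to 0.425 for RS31 and −0.03 to 0.72 for SR34a intron 11. Without WT C24 2 and lsm5 3, RS31 was 0.669, SR34b was 0.17, SR45a 0.24 and SR34a intron 11 −0.16, and with the tag block SR34b was 0.0597 and SR45a 0.0548. The cause was not tested. Of the other settings for single features, 470 kept direction and side of the threshold, 35 lost a call and 20 gained one.

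Replicate numbers shared by groups did not pair the samples: same-numbered replicates had correlated deviations of −0.27, −0.13 and 0.40 in the lsm4 comparison and −0.26, 0.52 and 0.48 in lsm5. With the number as a replicate block, 0 genes, 7 introns and 0 bins of the members were called in lsm4 and 0 of each in lsm5, while over all features 707 genes rose and 635 fell in lsm5 in place of 300 and 186. Depth limits the introns: 39 of 88 could be tested in lsm4 and 24 in lsm5.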

Other observations

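Each member had a gene outside the group that followed it closely over the 12 count columns. Measured as Pearson's r between deviations of log2 CPM from the mean of each comparison, over 19110 genes, the closest gene was PSAH-1, a subunit of photosystem I, for SR34 (r = 0.99), ESP1, a polyadenylation factor, for SR45 (r = 0.99), and ATSUN1, a nuclear envelope protein, for RS31a (r = 0.99). The lowest of these closest correlations was that of SR30 (r = 0.93, AT4G17680). Among the members themselves the closest pairs were SR34a and RS41 (r = 0.98) and RS40 and SR45 (r = 0.96), while SR30 reached 0.74 at most, with SR34b. The columns share their libraries and their depth, the highest of many genes is given, and the values are descriptions.

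Tables of the authors' own comparisons name some member introns that were not tested here or not called. In the authors' deposited table of lsm4, SR34b intron 6 is higher by 3.53 on the log2 scale with an FDR of 0.0480; its counts were 0, 1 and 0 in WT Col and 7, 6 and 17 in lsm4, below the filter used here. The authors' deposited table of lsm4 also lists SR34a intron 3 as lower by a log2 change of −2.30 with an FDR of 0.0314, where the log2 change computed here was −1.06 (edgeR adjusted p = 0.359). For SR30 intron 10 the authors' deposited table gives 1.76 with an FDR of 0.0246, while for SR30 intron 5, called here, the authors' deposited table gives 1.03 with an FDR of 0.139.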
